A study of Homo sapiens with 4 samples.

Results

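The CYP3A family is the group of cytochrome P450 genes CYP3A4, CYP3A5, CYP3A7 and CYP3A43. Its members here are all probe sets of the array whose platform annotation names at least 1 of these genes, 13 of 22215 probe sets in all, and none of the 13 names a gene beside its own. CYP3A7, the fetal form, has 2 probe sets, CYP3A4 has 4, CYP3A5 has 3 and CYP3A43 has 4. RNA came from the human liver cancer line Huh-7 (hepatocellular carcinoma), grown in medium with 10% heat-inactivated fetal bovine serum. There were 2 arrays of cells harvested 48 h after transforming growth factor beta (TGF-beta) was added and 2 arrays of untreated cells. The sources used here give neither the dose nor the isoform of TGF-beta. Huh-7 is 1 cell line, and the labels do not say that arrays of a group came from separate cultures, so the spread between them may be technical. The probe sets were chosen by gene symbol, but the family itself was selected on the TGF-beta fold change of CYP3A7 on these same arrays, so its members' values are a description with no p-value.

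CYP3A enzymes are haem proteins of the endoplasmic reticulum that take electrons from the reductase POR and oxidise drugs, steroids and bile acids. CYP3A7 is the main P450 of fetal liver, where it hydroxylates dehydroepiandrosterone sulphate, and it declines after birth while CYP3A4 becomes the main form of adult liver. CYP3A5 is present in only some adults because of a common splicing allele, and CYP3A43 is a minor form. The genes stand side by side on chromosome 7, in the order CYP3A5, CYP3A7, CYP3A4 and CYP3A43 in RefSeq. Transcription of CYP3A4 is activated by the nuclear receptors PXR (NR1I2) and CAR (NR1I3), which bind DNA with RXR partners, and hepatocyte factors such as HNF4A and the C/EBP proteins set its basal level.

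The promoters of the fetal and the adult main form are shown because they are nearly the same text. How they bear on the fold changes after TGF-beta was not tested. Each window runs from 250 bases before to 50 bases after the RefSeq start (GRCh38.p14, minus strand), written 5′ to 3′ as transcribed. The capitals mark the everted repeat known in CYP3A4 as a binding site of PXR, and the stretch aligned to it in CYP3A7. The CYP3A7 window lies at chr7:99735147-99735446 and the CYP3A4 window at chr7:99784135-99784434.
CYP3A7: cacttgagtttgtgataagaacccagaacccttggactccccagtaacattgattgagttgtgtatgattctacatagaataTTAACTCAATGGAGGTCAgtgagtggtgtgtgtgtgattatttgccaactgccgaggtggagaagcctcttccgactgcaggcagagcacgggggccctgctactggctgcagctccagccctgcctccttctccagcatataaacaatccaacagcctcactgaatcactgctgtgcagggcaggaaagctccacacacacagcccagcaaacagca
CYP3A4: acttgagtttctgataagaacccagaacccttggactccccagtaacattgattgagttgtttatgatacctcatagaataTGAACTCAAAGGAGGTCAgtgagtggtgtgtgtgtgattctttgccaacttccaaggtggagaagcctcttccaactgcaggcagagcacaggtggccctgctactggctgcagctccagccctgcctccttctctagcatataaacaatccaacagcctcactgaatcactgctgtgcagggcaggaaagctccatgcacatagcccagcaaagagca
Of 299 aligned bases, 282 were identical (94.3%). CYP3A5 was identical to CYP3A4 at 207 of 241 aligned bases (85.9%), and CYP3A43 at 206 of 287 (71.8%). The windows of CYP3A7 and of its readthrough gene CYP3A7-CYP3A51P are the same.

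To compare the element itself, the stretches aligned to it are set under each other, with every base in capitals as part of the element.
CYP3A7: TTAACTCAATGGAGGTCA
CYP3A4: TGAACTCAAAGGAGGTCA
CYP3A5: TGAACTCAAAAGAGGTCA
CYP3A43: GGAAATCAAAGGAGGCCA
The CYP3A5 stretch comes from the window chr7:99679947-99680246 (minus strand) and that of CYP3A43 from chr7:99827763-99828062 (plus strand). The CYP3A4 element lies at -169 to -152 from the start and the CYP3A7 stretch at -168 to -151. Counted from 1 at the 5′ end of the CYP3A4 element, CYP3A7 carries the substitutions G2T and A10T, CYP3A5 carries G11A, and CYP3A43 carries T1G, C5A and T16C. On either strand, TGAACTNNNNNNAGGTCA was found in 3 of 35116 RefSeq promoter windows (0.00854%), those of CYP3A4, CYP3A5 and ITGB1BP2. TTAACTNNNNNNAGGTCA was found in 2, those of CYP3A7 and its readthrough gene (0.00570%). The shorter AGGTCA, which lies inside both, is in 13.8% of windows, among them CYP3A4, CYP3A5 and CYP3A7. The SMAD box GTCTAGAC (0.202% of windows) and the shorter SMAD motif CAGAC (45.3% of windows) had no match in the windows of these 4 genes. The arrays measured transcripts and not binding, so these letters are a description of the genes.

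Each deposited value is the intensity of a probe set on 1 array, on a linear scale. Affymetrix marks a probe set by its suffix: probes of an _at set match 1 transcript, those of an _s_at set match several transcripts of a gene or family, and some probes of an _x_at set also match other sequences. Of the 13 members, 8 are _x_at, 1 is _s_at and 4 are _at. Probe sequences were not used here, so how much of a member's intensity comes from a related gene was not tested, and intensities of different probe sets are not set against each other. A fold change is the ratio of geometric means, TGF-beta over untreated, and its SE comes from a limma fit over all probe sets. A probe set was called at a Benjamini-Hochberg adjusted p under 0.05 in that fit.

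Both probe sets of CYP3A7 were brighter on each TGF-beta array than on each untreated array. The _at probe set 205939_at read 162 and 181 in TGF-beta cells, against 73.9 and 69.1 in untreated cells. It was 2.39-fold higher, with a log2 fold change of 1.26 ± 0.11 (SE, n = 2 per group), and the ratio of 1 TGF-beta array to 1 untreated array lay between 2.19 and 2.62. The _x_at probe set 211843_x_at read 290 and 343 in TGF-beta cells, against 113 and 82.1 in untreated cells. It was 3.28-fold higher, with a log2 fold change of 1.71 ± 0.17 (SE), and its array ratios lay between 2.57 and 4.18. The wider range of 211843_x_at came with a larger spread between untreated arrays, at an SD of 0.33 on the log2 scale against 0.07 for 205939_at. The log2 fold change of 211843_x_at exceeded that of 205939_at by 0.45. The gap between the lowest TGF-beta array and the highest untreated array was 1.13 on the log2 scale for 205939_at and 1.36 for 211843_x_at.

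Of the 4 probe sets of CYP3A4, the main drug-metabolising P450 of adult liver, 0 were called. The probe set 205998_x_at read 48.2 and 49.8 in TGF-beta cells, against 49.4 and 51.5 in untreated cells, and its groups overlapped (log2 fold change -0.04 ± 0.10, SE). The only _at probe set of CYP3A4, 210726_at, read 30.1 and 32.7 in TGF-beta cells, against 31.1 and 30.3 in untreated cells, and its groups overlapped too (0.03 ± 0.11). The other two did not overlap, with both TGF-beta arrays above both untreated arrays. The probe set 205999_x_at read 46.8 and 47.1 in TGF-beta cells, against 35.5 and 32.8 in untreated cells, which is 1.38-fold higher (0.46 ± 0.11). Of all probe sets, 3.17% had a larger log2 fold change than 205999_x_at. The probe set 208367_x_at read 37.2 and 41.0 in TGF-beta cells, against 35.6 and 32.0 in untreated cells (0.21 ± 0.12). As 205999_x_at and 208367_x_at are _x_at sets, some of their signal may come from CYP3A7 or another related sequence, which was not tested. The CYP3A4 probe sets had log2 fold changes between -0.04 and 0.46. All 4 lay below the array median in mean intensity, as did 9 of the 13 members. A probe set this dim may not register its transcript, so these values do not show that CYP3A4 was unaltered.

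CYP3A5, the polymorphic adult form, also had 0 calls among its 3 probe sets. The probe set 205765_at read 88.7 and 77.0 in TGF-beta cells, against 81.4 and 73.4 in untreated cells (0.10 ± 0.12). The _s_at probe set 214234_s_at read 62.8 and 59.8 in TGF-beta cells, against 60.7 and 59.1 in untreated cells (0.03 ± 0.10). In both the groups overlapped. The groups of 214235_at did not overlap, at 40.8 and 37.5 in TGF-beta cells against 41.8 and 47.8 in untreated cells (-0.19 ± 0.12), and this was the only member lower on both TGF-beta arrays.

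CYP3A43 is represented by 4 probe sets, all _x_at and all dim. Their intensities over the 4 arrays lay between 22.0 and 34.5, where the arrays' lower quartiles are 28.8 to 29.2 and their medians 50.1 to 51.0. All 4 overlapped between groups, and their log2 fold changes lay between -0.06 and 0.05 (SE 0.11 to 0.12). The largest of these in size was that of 211442_x_at, which read 29.3 and 25.7 in TGF-beta cells, against 30.3 and 27.1 in untreated cells. As for CYP3A4, these dim values do not show that the transcript was unaltered.

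**Figure D1:**
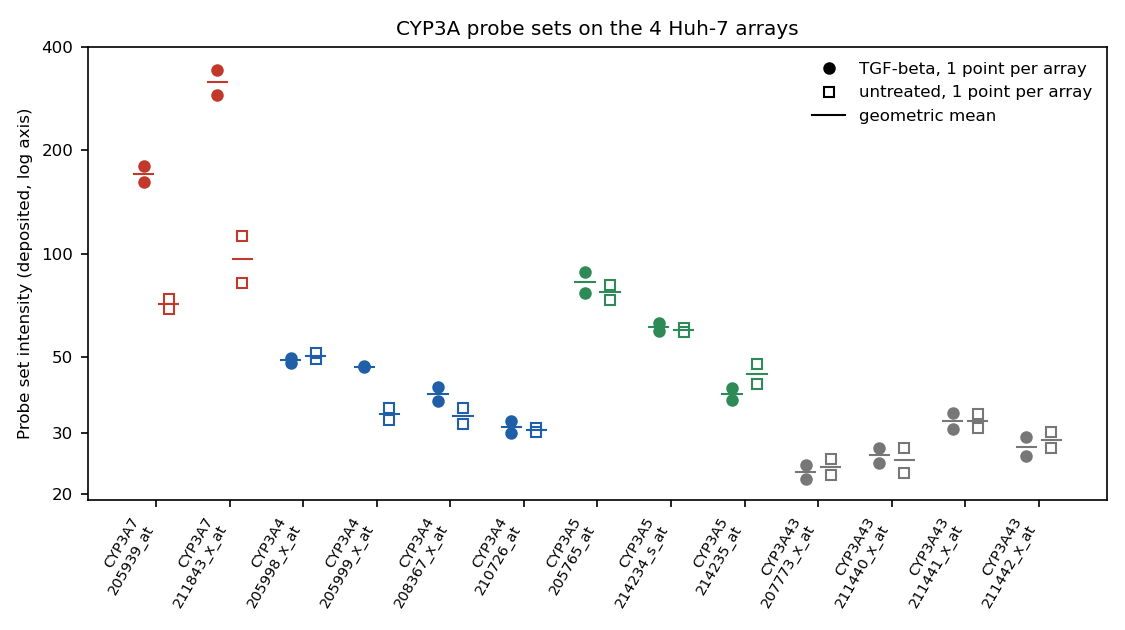
Deposited intensity (log axis) of the 13 CYP3A probe sets, with 1 point per array, TGF-beta as filled circles left of untreated as open squares, and a line at each group's geometric mean; heights of different probe sets are not comparable. The 2 CYP3A7 probe sets stand apart by group (162 and 181 against 73.9 and 69.1; 290 and 343 against 113 and 82.1), and of the other 11 only 205999_x_at and 208367_x_at of CYP3A4 lie higher, and 214235_at of CYP3A5 lower, without overlap.

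Across the family, 2 of 13 members were called, both of CYP3A7 and both higher, where 0.855% of all probe sets were called (0.41% higher and 0.446% lower). As the family was selected on the CYP3A7 value in this contrast, nothing is read from that count. The groups did not overlap in 5 members, 4 higher and 1 lower, against 47.1% of all probe sets (22.2% higher and 24.9% lower). The median log2 fold change was 0.03 over the 13 members and -0.01 over all probe sets. Of the members outside CYP3A7, the 7 _x_at probe sets had log2 fold changes of -0.06 to 0.46 and the other 4 had -0.19 to 0.10. Leaving out either TGF-beta array gave 0 calls over all probe sets, CYP3A7 included, with 211843_x_at at 1.83 without array 1 and 1.59 without array 2. Adding 50 to the intensities before the log2 also ended both CYP3A7 calls, at 1.32 for 211843_x_at and 0.86 for 205939_at, and moved the log2 fold change of 205999_x_at to 0.20.

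**Figure D2:**
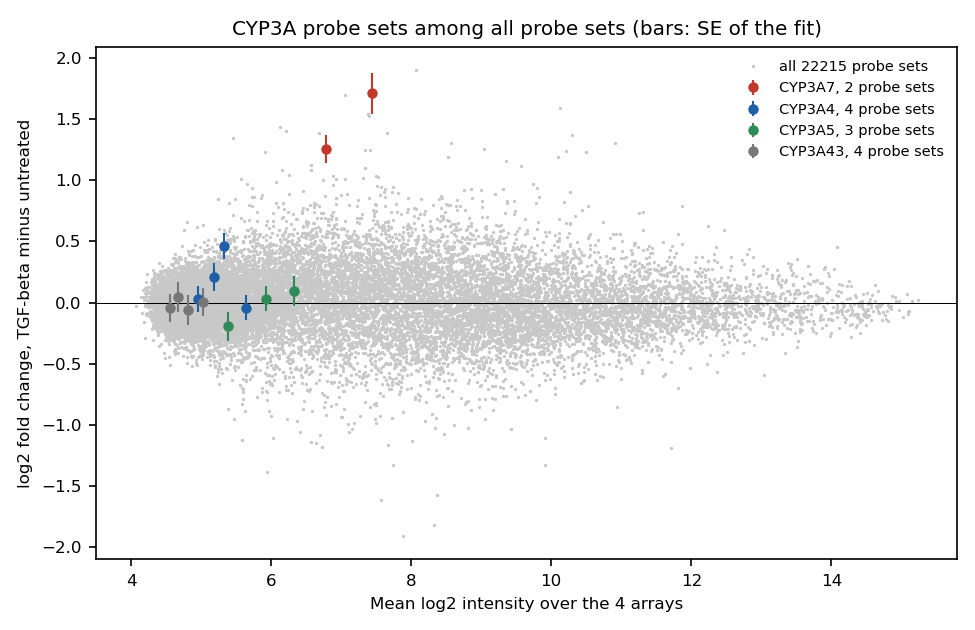
Log2 fold change (TGF-beta minus untreated) against the mean log2 intensity over the 4 arrays, for all 22215 probe sets in light grey and the CYP3A probe sets in colour with bars of 1 SE. CYP3A7 (red) lies at 1.26 and 1.71, while the other 11 members lie between -0.19 and 0.46.

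The pattern of 211843_x_at was set against that of every other probe set by the root mean square difference of log2 intensities, each centred on its own mean over the 4 arrays. The other CYP3A7 probe set, 205939_at, came 9th among all other probe sets, at 0.263. The nearest CYP3A4 probe set was 205999_x_at, 494th at 0.644, and the remaining members lay between 0.759 and 0.989. As the family was selected on the CYP3A7 fold change on these same arrays, nothing is read from the members' ranks. Among genes outside the family, the 5 most alike over these 4 arrays were CXCR4 (a chemokine receptor, 0.199), KRT23 (a type I keratin, 0.204), CXCL8 (a neutrophil chemokine, 0.207), DPYSL3 (a cytoskeleton-associated protein, 0.215) and CXCL2 (another chemokine, 0.239). With 4 arrays this likeness is mostly the size of the TGF-beta difference: CXCR4 read 227 and 253 in TGF-beta cells, against 71.7 and 76.6 in untreated cells. CXCR4, CXCL8 and DPYSL3 have further probe sets, all with smaller log2 fold changes. Those of CXCR4 lay between 0.75 and 1.08, those of CXCL8 between -0.21 and 1.31, and that of DPYSL3 at 0.43.

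The rest of the system in which CYP3A enzymes work was described by 6 lists, each gene by its brightest probe set, where 1.04% of all 12165 genes were called (0.551% higher and 0.493% lower) and the median log2 fold change was -0.01. By an unadjusted p under 0.05, 9.49% of all genes lay higher and 8.8% lower, and 48.6% of all genes had a positive value. Among regulators of CYP3A transcription, 1 of 22 measured genes was called higher, 0 lower and 21 did not pass, with a median of 0.07 (limma; 5 above and 0 below untreated cells by an unadjusted p under 0.05). The call was CEBPD, a C/EBP factor, which read 741 and 639 in TGF-beta cells, against 365 and 411 in untreated cells. Its log2 fold change was 0.83 ± 0.12 (SE) with a limma adjusted p of 0.0445, and the call was lost without either TGF-beta array (0.72 without array 1, 0.93 without array 2) and under several other settings. The other 2 probe sets of CEBPD gave 0.11 and 0.22. RXRA, the partner of PXR and CAR, read 317 and 267 in TGF-beta cells, against 190 and 146 in untreated cells (0.81 ± 0.16, limma adjusted p = 0.0655), while its other probe set gave -0.22. NR0B2 (SHP), a repressor that acts on nuclear receptors, stood at 0.67 (limma adjusted p = 0.0640). CEBPA had a value of 0.33 (limma adjusted p = 0.187). NR1I3 (CAR) was dim, at 26.0 and 28.5 in TGF-beta cells against 34.2 and 28.9 in untreated cells. NR1I2 (PXR) and HNF4A were not analysed here.

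Enzymes that pass electrons to P450s or make and degrade haem had 0 calls among 16 measured genes (limma; 1 above and 0 below untreated cells by an unadjusted p under 0.05), and the median was 0.02. POR, the P450 reductase, read 168 and 146 in TGF-beta cells, against 139 and 128 in untreated cells (0.23 ± 0.12, SE; limma adjusted p = 0.405). CYB5A, the cytochrome b5 that assists many CYP3A reactions, stood at -0.09 ± 0.11. The largest values in either direction, by brightest probe set, were those of PPOX (a haem synthesis enzyme, 0.33) and BLVRA (biliverdin reductase, -0.27). The other 3 probe sets of BLVRA lay between -0.52 and 0.08.

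Of the targets of PXR and CAR outside CYP3A, 0 of 13 measured genes were called (limma; 1 above and 3 below untreated cells by an unadjusted p under 0.05), and the median was 0.07. SULT2A1, the sulphotransferase that makes dehydroepiandrosterone sulphate, a substrate of CYP3A7, read 538 and 438 in TGF-beta cells, against 809 and 843 in untreated cells. Its log2 fold change was -0.77 ± 0.13 (SE) at a limma adjusted p of 0.0506. That p lies just past the threshold, and with 1 probe set per gene in the fit SULT2A1 was called. Its other probe set gave -0.23. ABCG2, a drug efflux pump, read 79.6 and 76.7 in TGF-beta cells, against 111 and 122 in untreated cells (-0.57, limma adjusted p = 0.0650). ABCB1 (P-glycoprotein) stood at -0.48 (limma adjusted p = 0.147). The SULT2A1, ABCG2 and ABCB1 values are thus negative and did not pass. Of the 13 measured targets, 8 had a positive value, where 48.6% of all genes did.

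Other genes that differ between fetal and adult liver were taken as 2 lists. Fetal-type genes outside CYP3A had 0 calls among 11 measured (limma; 1 above and 0 below untreated cells by an unadjusted p under 0.05), and the median was 0.10, with 9 of 11 values positive. FMO1, the fetal liver form of the flavin monooxygenases, read 484 and 477 in TGF-beta cells, against 351 and 270 in untreated cells (0.64 ± 0.14, SE; limma adjusted p = 0.0816). AFP, the fetal counterpart of albumin, read 25420 and 24706 in TGF-beta cells, against 23914 and 24139 in untreated cells (0.06). ADH1A, the alcohol dehydrogenase subunit of fetal liver, stood at 0.27 and was dim. Adult-type genes had 0 calls among 11 (limma; 2 above and 1 below untreated cells by an unadjusted p under 0.05), and the median was 0.07, with 8 of 11 values positive. SULT2A1, in this list too, had its lowest value, the -0.77 given above. ADH1B, the adult alcohol dehydrogenase subunit, read 35.1 and 34.8 in TGF-beta cells, against 20.1 and 24.3 in untreated cells (0.66, limma adjusted p = 0.0645). ADH1B was dim as well, and its value was 0.42 with an offset of 16 and 0.23 with an offset of 50. Its other probe set gave 0.01. ALB stood at 0.07 by its brightest probe set, while its other 2 probe sets gave -0.34 and 0.43. The list medians of 0.10 for fetal-type and 0.07 for adult-type genes lie close together, and their difference was not tested.

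Genes of steroid and bile acid handling, which hold many substrates of CYP3A enzymes, had 0 calls among 26 measured (limma; 3 above and 2 below untreated cells by an unadjusted p under 0.05), and the median was 0.001. AKR1D1, the steroid 5-beta-reductase, read 135 and 99.5 in TGF-beta cells, against 66.7 and 80.9 in untreated cells (0.66 ± 0.17, SE; limma adjusted p = 0.114). SULT2A1, in this list as well, had the lowest value.

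**Figure D3:**
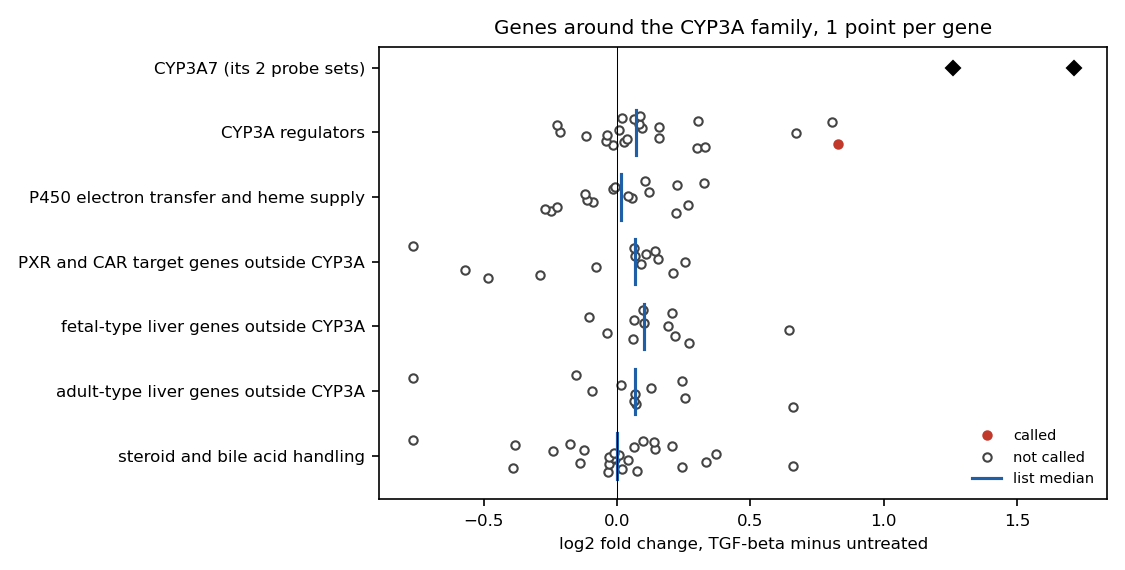
Log2 fold change (TGF-beta minus untreated) of each measured gene in 6 lists, by its brightest probe set, with called genes filled in red, the list median as a blue line and the 2 probe sets of CYP3A7 as black diamonds. The list genes lie between -0.77 and 0.83, and CEBPD is the only filled point; CYP3A7 is drawn for scale, since the family was selected on its value.

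The genes beside the cluster were taken as the 10 protein-coding genes on each side in the RefSeq order, of which 11 of 20 were measured. None was called (limma; 2 above and 1 below untreated cells by an unadjusted p under 0.05), and their median was 0.14. The largest values were those of PTCD1 (a mitochondrial RNA-binding protein) at 0.46 ± 0.14 (SE, limma adjusted p = 0.166) and ZNF394 (a zinc finger protein) at 0.43 ± 0.12 (limma adjusted p = 0.137). Both lie on the CYP3A5 side. The nearest measured gene on that side, ZKSCAN5 (a zinc finger protein), read 129 and 145 in TGF-beta cells, against 165 and 180 in untreated cells (-0.33 ± 0.12, SE; limma adjusted p = 0.221), the lowest value of the 11. The nearest on the CYP3A43 side, AZGP1 (a secreted plasma glycoprotein), was dim, at 22.8 and 27.7 in TGF-beta cells against 24.7 and 26.5 in untreated cells.

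**Figure D4:**
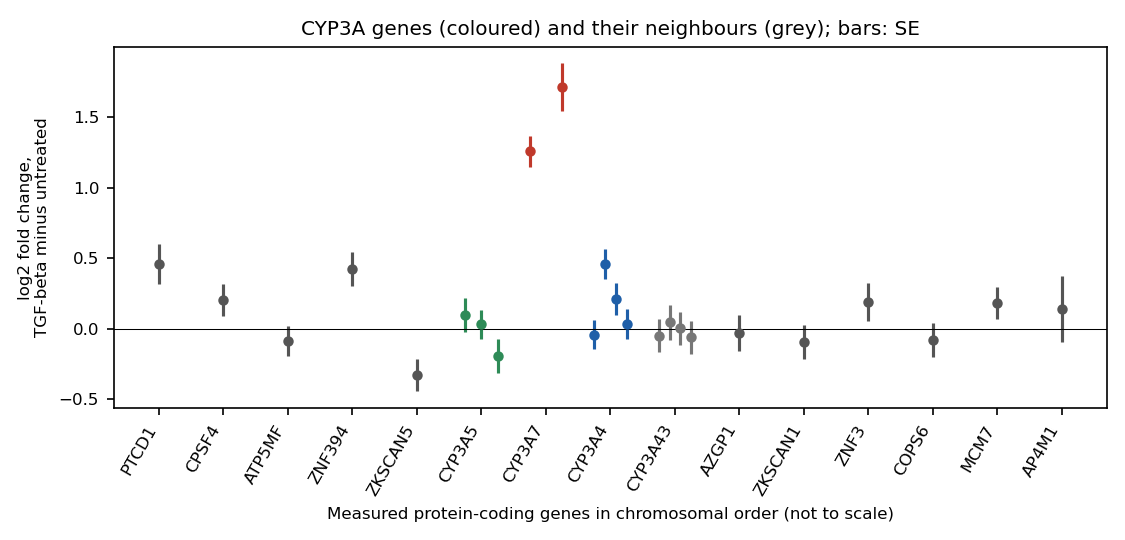
Log2 fold change (TGF-beta minus untreated, bars 1 SE) of the CYP3A probe sets in colour and of the 11 measured neighbours in grey, in chromosomal order and not to scale. The neighbours lie between -0.33 (ZKSCAN5) and 0.46 (PTCD1), and the 2 CYP3A7 points, on which the family was selected, at 1.26 and 1.71.

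Over all 22215 probe sets, 190 were called, 91 higher and 99 lower after TGF-beta. TGF-beta arrays differed from each other by a median of 0.116 on the log2 scale, in size, and untreated arrays by 0.125. All 8 measured hepatocyte markers lay above the array median, with summed intensities of 93487 and 91239 in TGF-beta cells and 84852 and 87626 in untreated cells. Of those 8, APOA1 was called higher (0.74, limma adjusted p = 0.0454). SERPINA1, at 0.60 (limma adjusted p = 0.0651), and TTR, at -0.63 (limma adjusted p = 0.0533), did not pass. Summed fibroblast markers were 6975 and 7485 in TGF-beta cells and 7431 and 6918 in untreated cells, nearly all from LUM. The markers other than LUM all had negative log2 fold changes, from -0.53 (DCN) to -0.10 (COL3A1), and did not pass. Of the 6 fibroblast markers, 2 lay above the array median. Leukocyte markers (3 measured) summed to 331 and 350 in TGF-beta cells and 393 and 308 in untreated cells. These sums hold opposite differences. CD14, which hepatocytes also express, was called higher, at 146 and 157 in TGF-beta cells against 75.6 and 75.4 in untreated cells. CD3D read 154 and 163 in TGF-beta cells, against 285 and 204 in untreated cells. Its log2 fold change of -0.61 did not pass (limma adjusted p = 0.123). PTPRC stood at 0.007. Endothelial markers (4 measured) summed to 129 and 116 in TGF-beta cells and 131 and 131 in untreated cells. The part of these markers in the CYP3A7 values was not tested. All arrays are of the same cell line, so these sums are not read as numbers of fibroblasts, leukocytes or endothelial cells. In bulk RNA, a difference in some of the cells and a difference in all of them cannot be told apart.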

How the data were processed

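RNA of Huh-7 cells was measured on 4 Affymetrix arrays, 2 TGF-beta and 2 untreated, grouped by sample title. The authors deposited 1 linear intensity for each probe set on each array. Affy is named in the submitters' processing notes; its settings, background correction, normalization and summary are not stated in these sources. Quartiles were nearly equal between arrays, so no scaling was added. The log2 of each intensity, without an offset, was fitted with limma 3.58.1 (R 4.3.3; lmFit, eBayes, Benjamini-Hochberg) over all 22215 probe sets, with 7.43 degrees of freedom per probe set. Python 3.11.15, Biopython 1.88 (promoter alignment) and matplotlib 3.10.9 did the rest. Array number limits the precision.

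Names came from the platform annotation, which can be old: 19724 probe sets name 1 gene (19707 with a current RefSeq symbol), 568 several and 1923 none. RefSeq GRCh38.p14 gave names, gene order and promoters, with all 13 members matched. The files name no build.

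The members and lists were chosen with earlier results of these data known. Named genes are all members, up to 5 called and the 2 largest uncalled genes of each list, 13 always-named liver, regulator and cofactor genes where measured, and the 5 nearest patterns; marker genes, ZKSCAN5, AZGP1 and other probe sets were named after their values were seen. In 20 simulated runs of 22215 probe sets with 200 changed, the fit recovered 4.09% of changes of 0.5 on the log2 scale. It recovered 89.0% of changes of 1 and 98.4% of changes of 1.5, and 5.70% of calls in those runs were false. These percentages describe those runs only. The share of changes that the fit recovered on the arrays was not tested. The share of false calls among the probe sets called on the arrays was not tested either.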

Additional observations from a re-analysis of the deposited data

How the results depend on the processing

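The count of called probe sets depended on the processing: 73 with the dimmer part below the median left out, 96 with that below the lower quartile left out, 91 with an offset of 16, 0 with an offset of 50 (limma, 3822 at an unadjusted p under 0.05), 96 under quantile normalization, 750 with a trended robust prior, and 0 to 680 when 1 array was left out (0 without either TGF-beta array, with 2251 and 2712 at an unadjusted p under 0.05). With the replicate number as a block it was 977; the numbers 1 and 2 are not said to pair arrays, and deviations of same-numbered arrays correlated at -0.01. The CYP3A count of 2 became 1 with 1 probe set per gene, which leaves CYP3A7 only 1, 0 with an offset of 50, and 0 to 2 when 1 array was left out. Over 14 fits 211843_x_at ranged from 1.32 to 1.94, and over 13 fits 205939_at ranged from 0.86 to 1.34. The regulator count of 1 became 0 with either filter on dim probe sets, either offset, quantile normalization or the mean of a gene's probe sets, 3 with the block or the trended prior, and 0 to 2 with 1 array left out. The PXR and CAR target count of 0 became 1 with 1 probe set per gene, the mean of probe sets, median centring or the trended prior, 2 with the block, and 0 to 1 with 1 array left out. For fetal-type genes it became 1 with the block or the trended prior and 0 to 1 with 1 array left out. For adult-type genes it became 1 with 1 probe set per gene or median centring, 2 with the block or the trended prior, and 0 to 2 with 1 array left out. For steroid and bile acid genes it became 1 with 1 probe set per gene, median centring or the trended prior, 2 with the block, and 0 to 2 with 1 array left out. CYB5A ranged from -0.19 to 0.0077 with 1 array left out, turning positive without untreated array 1. Electron transfer genes and cluster neighbours kept a count of 0 in all 14 alternatives. The causes were not tested, apart from those the settings themselves give.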
